A study of Mus musculus with 6 samples.

Results

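The 38 interferon-stimulated genes described here were taken from a written list, and 36 of them were among the 32285 genes of the deposited feature files (Mx1 and Mx2 were not analysed here). The list was chosen with earlier results of these data known, so counts of its genes beside shares of all genes are a description. Transcripts were counted cell by cell in CD11b+ marrow of C57Bl/6 mice 2 months of age, in 3 samples from the femur and 3 from the mandible with 69776 kept cells together. CD11b is the surface integrin of neutrophils, monocytes and macrophages, and microbeads against it were used to select all 6 samples. Femur replicate 1 was female and the other 5 samples were male. The labels put the femur marrow as flushed from femurs and tibiae and the methods name femurs alone, and mandibles were flushed after the molars had been taken out. How many mice went into a sample is not stated, so p-values measure the spread between samples, which may be technical.

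Type I interferons bind the receptor formed by IFNAR1 and IFNAR2, and the kinases JAK1 and TYK2 then activate STAT2. With IRF9 it takes part in a complex that binds the interferon-stimulated response element in the promoters of its target genes. Their products block the copying, translation or release of viruses, and many of the genes are transcribed at a low level without infection.

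The response element holds GAAA, a pair of free bases and GAAA again, so these letters and their reverse complement (TTTC, a pair of free bases, TTTC) were searched in the RefSeq promoter windows (build GRCm38.p6, 250 bases before to 50 bases after a start site). Of the 36 genes, 28 had a window and 17 of these 28 (60.7%) held the letters, against 1079 of 27025 genes of the table (3.99%). The sequences below show these letters for 6 members whose values are described further on. They were chosen after those values were seen and are no ranking, and each is read along the gene's own strand. Capitals mark 1 match in each stretch, and other matches in it are left in lower case. The stretches lie upstream of the start site, and a match is a description of letters only.
Ifit1, chr19:34640774-34640843 (+): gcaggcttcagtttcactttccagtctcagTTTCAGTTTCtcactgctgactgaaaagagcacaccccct
Ifit3, chr19:34583377-34583446 (+): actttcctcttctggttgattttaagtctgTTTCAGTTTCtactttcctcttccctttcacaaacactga
Ifit3b, chr19:34607773-34607842 (+): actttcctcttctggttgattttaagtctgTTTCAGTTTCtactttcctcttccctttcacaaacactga
Isg15, chr4:156200851-156200920 (-): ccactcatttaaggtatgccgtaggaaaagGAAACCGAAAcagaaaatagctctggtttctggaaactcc
Rsad2, chr12:26456533-26456602 (-): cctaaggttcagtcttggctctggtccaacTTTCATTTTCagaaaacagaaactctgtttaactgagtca
Bst2, chr8:71537557-71537626 (-): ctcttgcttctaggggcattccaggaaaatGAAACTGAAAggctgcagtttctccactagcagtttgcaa
The Ifit3 and Ifit3b stretches were identical in all 70 bases, although the genes lie at separate positions. Isg15 held 3 overlapping matches, and Ifit1, Ifit3, Ifit3b and Bst2 held 2 each. Ifit2 held none in 2 windows, nor did Oasl1, Oasl2, Herc6, Irf7, Cmpk2 or Slfn1 in their windows, and the search says nothing about sequence outside these windows.

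The deposited metadata placed the cells in 9 clusters, and the member levels are given here in counts of unique molecular identifiers (UMIs, 1 per captured 3′ transcript end) scaled by the total of the sample and cluster on the usual CPM scale, not divided by gene length. Cluster 4 held the neutrophil precursor genes, with 1058 CPM of Elane against at most 5.93 CPM in clusters 0, 1, 2 and 3. Cluster 0 was highest for the granule gene Ltf at 13233 CPM, cluster 3 for Mmp8 at 5420 CPM, and Csf3r and Cxcr2, markers of mature neutrophils, went from 410 and 333 CPM in cluster 0 to 768 and 952 in cluster 3, 1724 and 1241 in cluster 2 and 2659 and 1477 in cluster 1. The order 4, 0, 3, 2, 1 used below follows these markers and carries no measure of time. Cluster 5 held cells of several labels, most of them Monocytes or Neutrophils by the ImmGen reference, and its cells labelled Monocytes had 1261 CPM of Ccr2 and 410 CPM of Csf1r. The kept cells held 82962160 to 244946998 UMIs per sample, with the most in femur replicate 3, which also had the most kept cells (22797). Its median was 8292 UMIs per cell, where the samples ranged from 6924 to 9158. Any 2 samples shared between 15 and 70 cell barcodes.

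Along the neutrophil clusters nearly every member was more abundant in the later clusters. From cluster 0 to cluster 1 all 33 members with at least 10 CPM in either cluster were higher in 6 of 6 samples, with a median of 4.33-fold (2.12 on the log2 scale). Of all 6368 genes at that level, 47.2% were higher in 6 of 6 samples and the median log2 ratio was 0.15. Of the 33, 10 reached 10 CPM in cluster 1 alone, so the choice of the level fixed their direction. The other 23, at 10 CPM or more in cluster 0, were higher in 6 of 6 samples too, with a median log2 ratio of 1.58, against 43.2% and 0.07 of the 5843 genes chosen in the same way. Clusters were built from the expression of these same cells, so these differences are given as a description with no test.

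**Figure D1:**
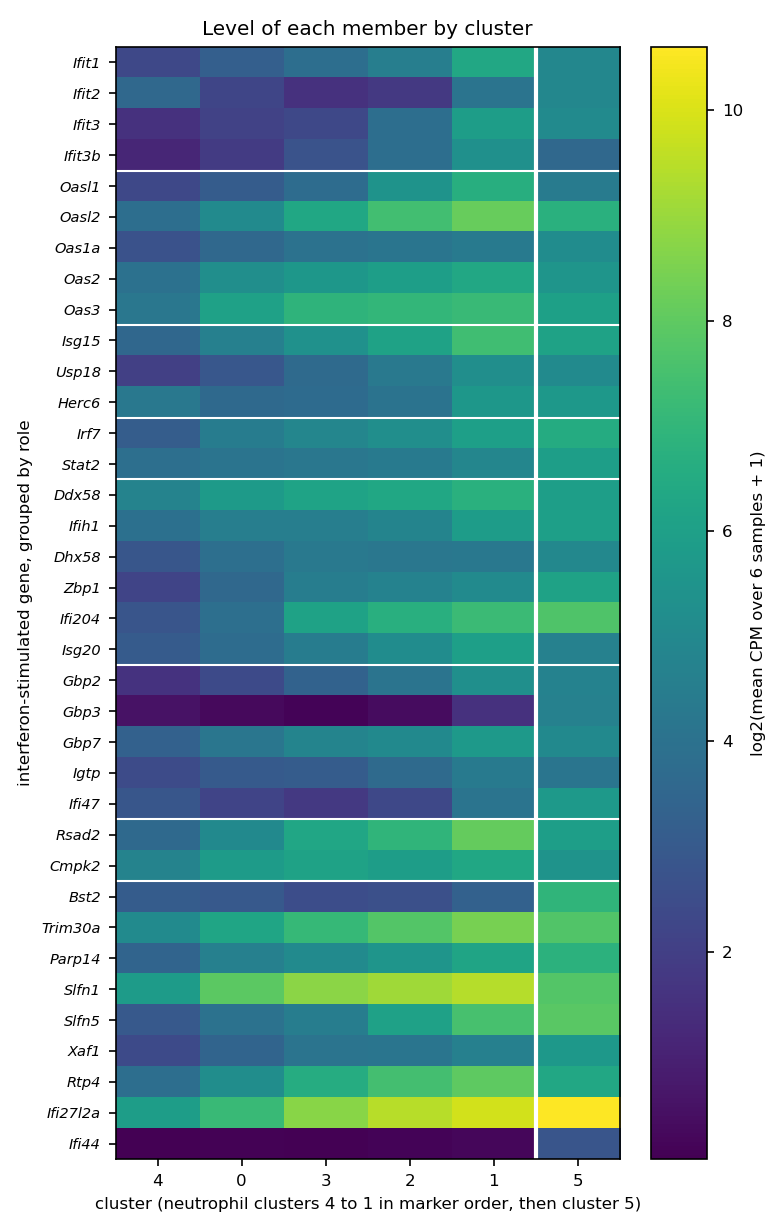
Mean CPM of the 36 genes over 6 samples, on the log2(CPM + 1) scale, in clusters 4, 0, 3, 2 and 1 and in cluster 5, with horizontal lines between roles. Most rows brighten from cluster 4 to cluster 1 (Ifit3 from 1.87 to 58.8 CPM), while Gbp3, Bst2 and Ifi44 are dark in the neutrophil clusters and brighter in cluster 5.

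The IFIT genes, whose products bind viral RNA ends, lie side by side at chr19:34550694-34650009 in mm10 (Ifit2, Ifit3, Ifit3b, Ifit1) and included the members with the largest ratios. Ifit3 measured 3.31 ± 2.62 CPM in cluster 0 and 58.8 ± 26.3 CPM in cluster 1 (SD, n = 6), 19.6-fold higher, where each fold between clusters is 2 raised to the mean over 6 samples of the log2 ratio within a sample. Ifit3b measured 2.65 ± 1.60 and 39.9 ± 14.9 CPM, 16.1-fold higher, and Ifit1 was 9.81-fold higher. With each cell drawn to 2000 UMIs the ratios of the means were 27.0 for Ifit3, 26.1 for Ifit3b and 12.4 for Ifit1. Ifit2 did not follow its neighbours: it measured 11.2 ± 2.75 CPM in cluster 4, 3.72 ± 0.909 CPM in cluster 0, 1.89 ± 0.405 CPM in cluster 3 and 16.2 ± 4.66 CPM in cluster 1. Of the 90-base stretches of the Ifit3 transcript end, 6.57% were shared with Ifit3b, so a small part of their reads cannot be told apart.

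Oasl1, a 2′-5′ oligoadenylate synthase-like protein, was 13.8-fold higher in cluster 1 than in cluster 0, and its neighbour Oasl2 was 8.53-fold higher. The active enzymes of that family make the activator of RNase L. Its members Oas2, Oas3 and Oas1a differed less, with 2.19-fold for Oas2, 2.20-fold for Oas3 and 1.80-fold for Oas1a. The Oas1a transcript end shared 42.3% of its 90-base stretches with Oas1g, and its level is uncertain for that reason. Oas3 differed most between the early clusters, with 17.9 ± 3.25 CPM in cluster 4, 66.9 ± 5.36 in cluster 0, 120.4 ± 9.29 in cluster 3 and 147 ± 7.15 CPM in cluster 1.

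Among the nucleic acid sensors, Ifi204, a member of the PYHIN family of DNA-binding proteins, was 10.8-fold higher in cluster 1 than in cluster 0, and 4.81-fold higher in cluster 3 than in cluster 0. The 3 RNA helicases of the RIG-I family differed from each other. Ifih1 (MDA5) was 2.48-fold, Ddx58 (RIG-I) 1.93-fold and Dhx58 (LGP2), their regulator, only 1.33-fold higher in cluster 1 than in cluster 0. Dhx58, Cmpk2 at 1.41-fold and Stat2 at 1.74-fold had the smallest differences of the members with at least 10 CPM, and all of them were nevertheless higher in 6 of 6 samples. Rsad2 (viperin), whose product makes a chain-terminating nucleotide from CTP, was 8.40-fold higher, against the 1.41-fold of Cmpk2, the nucleotide kinase encoded beside it at chr12:26442746-26479837.

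Some members went against the direction in single steps. From cluster 4 to cluster 0, 21 of 24 members were higher in 6 of 6 samples and Ifit2 (0.333-fold) and Herc6 (0.639-fold) were lower in 6 of 6, where 39.3% of all 7065 genes were higher and 46.5% lower. From cluster 3 to cluster 2, 21 of 31 were higher in 6 of 6 and Cmpk2 (0.864-fold) was lower in 6 of 6, where 36.8% of all 5536 genes were higher and 18.7% lower. Of these members 9 of 24 and 4 of 31 reached 10 CPM in the later cluster alone. The last step, from cluster 2 to cluster 1, had 32 of 33 members higher in 6 of 6 samples and a median of 1.65-fold, where 48.4% of all 5718 genes were higher in 6 of 6. Outside cells with UMIs of at least 3 other core genes (defined below), 15 of the 33 members were higher in 6 of 6 in this step and Cmpk2 (0.740-fold) was lower in 6 of 6. With the same cells left out for every gene, those with UMIs of at least 3 core genes, 11 of the 33 were higher in 6 of 6, which is no more than the 38.1% of all 5718 genes. The core genes that set these cells apart are members themselves. For members outside the core the split at 3 other core genes took 21.1% of cluster 1 and 10.6% of cluster 2. A lower count of members thus follows in part from the choice of cells, and it is given as a description.

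Cluster 1 had the highest mean of clusters 0 to 5 for 19 members and cluster 5 for 17. Of 35 members with at least 10 CPM in cluster 1 or 5, 12 were higher in cluster 5 in 6 of 6 samples and 18 lower. For all 8433 genes at that level, 62.9% were higher and 22.8% lower. The median log2 ratio of cluster 5 over cluster 1 was -0.25 for these members and 0.80 for all genes. The members highest in cluster 1 included Slfn1, Trim30a, Oasl2, Rsad2 and Rtp4. Those highest in cluster 5 included both transcription factors, Irf7 and Stat2. Of these, 4 genes chosen after their values were seen differed most. Bst2 (tetherin), which holds budding virus at the cell surface, measured 124 ± 11.3 CPM in cluster 5 and 8.92 ± 3.38 CPM in cluster 1 (SD, n = 6). Gbp3 measured 24.2 ± 7.69 against 1.94 ± 0.855 CPM, Ifi47 53.5 ± 14.4 against 16.1 ± 3.08 CPM, and Ifi44 5.96 ± 5.27 against 0.159 ± 0.140 CPM. Clusters 1 and 5 were not ordered alike in all samples for Usp18, highest in cluster 1 in 4 of 6, or for Herc6, Ifih1, Ifit2 and Slfn5, highest in cluster 5 in 4 or 5 of 6.

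The averages above hide how unevenly the transcripts were spread over cells. To set cells on 1 depth, 2000 UMIs were drawn from each, which left out 3.20% of the cells (11.5% in femur replicate 1 and 1.23% to 2.89% in the other samples), and a cell with a UMI in at least 4 of 11 core genes (Ifit1, Ifit2, Ifit3, Ifit3b, Isg15, Rsad2, Usp18, Oasl1, Oasl2, Cmpk2 and Irf7) was called high-scoring. Of 67545 scored cells 3124 were high-scoring. Cluster 1 held 64.1% of these and 22.7% of all scored cells. These counts pool the 6 samples. Femur replicate 3 alone held 22471 of the scored cells, 1414 of the high-scoring cells and 956 of the 2003 high-scoring cells of cluster 1. In cluster 1, 1229 cells had 3 core genes, just below the limit, 700 had 4, and 28 had all 11. The high-scoring cells of cluster 1 had a median of 4487 UMIs before thinning and the others 4688.5, and 98.7% and 97.5% of them were called G1 phase in the metadata. Femur replicate 1 lost 5.83% of its cells of cluster 1 at this depth, 5.94% of its Monocytes of cluster 5 and 42.7% of its Neutrophils of cluster 5, and the part of this loss in its shares was not tested.

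**Figure D2:**
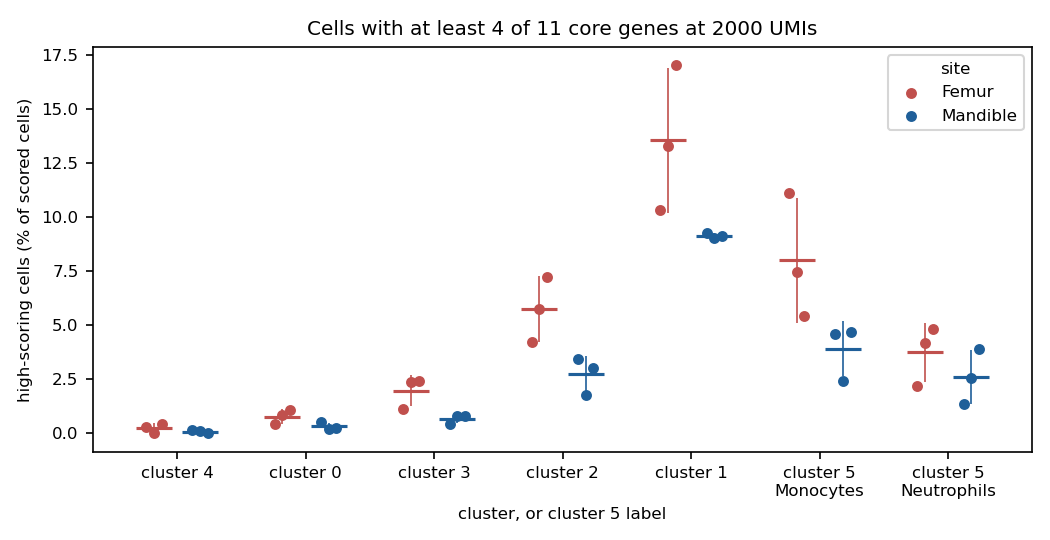
Share of scored cells that were high-scoring, in percent, per sample (points), with the mean (horizontal line) and SD (vertical line) of 3 femur-derived and 3 mandibular-derived samples in clusters 4, 0, 3, 2 and 1 and in cells of cluster 5 labelled Monocytes or Neutrophils. The share climbs from 0.239% in cluster 4 to 13.6% in cluster 1 of the femur, and the sites do not overlap in clusters 3, 2 and 1 and in Monocytes.

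In clusters 4, 0, 3, 2 and 1 the mean share of high-scoring cells followed that order in both sites and was lower in the mandible-derived cells of each, with overlap between samples in clusters 0 and 4. In cluster 1 it was 10.3%, 13.3% and 17.0% in femur replicates 1 to 3 and 9.27%, 9.03% and 9.15% in mandible replicates 1 to 3. The sites did not overlap, but femur replicate 1 lay 1.08 percentage points above the nearest mandible sample, and its exact 95% interval (9.07% to 11.7%) held the mandible values of replicates 1 and 3. Means were 13.6% ± 3.35 in the femur and 9.15% ± 0.119 in the mandible (SD, n = 3), and the difference of -4.41 percentage points was -2.67 without femur replicate 3. In cluster 2 they were 5.75% ± 1.52 and 2.73% ± 0.865, and in cluster 3 they were 1.98% ± 0.718 and 0.684% ± 0.226, again without overlap. The separation of clusters 2 and 3 depended on the limit of 4 core genes. With at least 3 core genes cluster 3 overlapped and cluster 2 did not, and with at least 6 both overlapped. Clusters 1 and 5 did not overlap at either limit. The mandible shares of cluster 3 rested on 5, 9 and 8 high-scoring cells. In cells of cluster 5 labelled Monocytes the samples had 11.1%, 7.48% and 5.42% in the femur and 4.61%, 2.44% and 4.69% in the mandible. The highest monocyte share was thus in femur replicate 1, which had the lowest femur share in cluster 1. Clusters 0 (0.774% and 0.325%) and 4 (0.239% and 0.0827%) overlapped. Cluster 4 held only 18 high-scoring cells in all, and with at least 3 core genes it did not overlap. On leaving out 1 replicate the difference ranged from -0.631 to -0.293 percentage points in cluster 0 and from -0.275 to -0.0571 in cluster 4. The 2-sided exact permutation p was 0.1 for clusters 1, 2, 3 and 5 and for all cells, the smallest that 3 against 3 samples can give, and 0.2 after Benjamini-Hochberg adjustment over 9 clusters and all cells, so the design could not reach 0.05. Intervals cover counting error only.

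The members divided by how much of their RNA lay in such cells. Each member's UMIs, pooled over the 6 samples, were split between cells with at least 3 other core genes and the rest. This avoided counting a gene for its own score. In cluster 1 the first set was 21.1% of the cells for members outside the core and between 15.1% (Oasl2) and 21.0% (Ifit2) for core genes. It held 94.4% of the UMIs of Ifit2. Ifit3 had 89.2%, Ifit1 84.3%, Ifit3b 83.2%, Gbp3 78.6% (of only 70 UMIs), Herc6 78.0% and Ifi47 77.6% of their UMIs there. At the other end Slfn1 had 31.1%, Ifi27l2a 35.5%, Trim30a 39.2% and Dhx58 39.5%. Oasl2 had 37.7% in its smaller set, where its level was 3.36-fold that outside, against 2.43-fold for Trim30a and 2.57-fold for Dhx58. Outside the set, members still measured 635 ± 87.9 (Slfn1) and 869 ± 222 (Ifi27l2a) CPM (SD, n = 6). Ifit2 outside the set measured 1.15 ± 0.416 CPM against 76.7 ± 12.5 inside, and 6 of 6 samples had this order for every member except Dhx58 (5 of 6) and Ifi44 (1 of 6, with 3 UMIs inside).

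**Figure D3:**
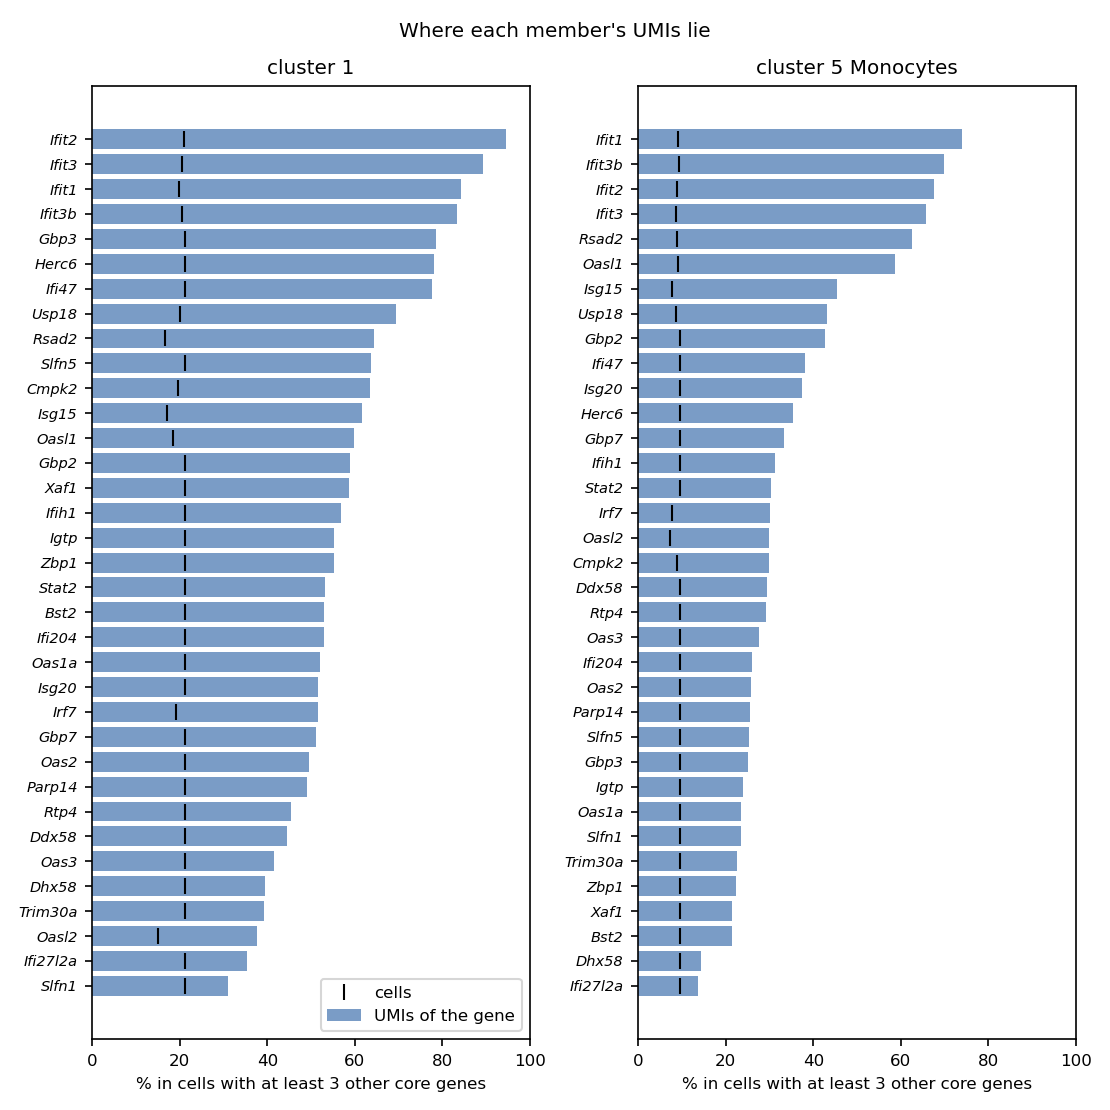
Percent of each member's UMIs (bars) and percent of cells (black ticks) in cells with at least 3 other core genes, pooled over 6 samples at 2000 UMIs per cell, in cluster 1 and in Monocytes of cluster 5, for members with at least 50 UMIs. Ifit2 with 94.4% tops cluster 1 and Ifit1 with 74.0% tops Monocytes, while Ifi27l2a ends the Monocytes panel at 13.7%.

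In Monocytes the same split took about 9% of the cells. Ifit1 had 74.0%, Ifit3b 69.8%, Ifit2 67.5%, Ifit3 65.8% and Rsad2 62.5% of their UMIs there, and Dhx58 14.4% and Ifi27l2a 13.7%. Slfn5 stood at 63.7% in cluster 1 and 25.4% in Monocytes, and Cmpk2 at 63.4% and 29.8%. The set was larger in cluster 1, so these percentages cannot be compared directly between the cell groups. The level inside the set over that outside was 6.76-fold in cluster 1 and 3.22-fold in Monocytes for Slfn5, and 7.96-fold and 4.34-fold for Cmpk2. For Slfn1 the percentage was 31.1% and 23.5%, while the fold was 1.67 and 2.87.

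Levels outside these cells were compared between the neutrophil clusters as well. Free RNA in the droplets was not measured, and its part in these levels was not tested. Without these cells, 26 of the 33 members were higher in cluster 1 than in cluster 0 in 6 of 6 samples. With the same cells left out for every gene (at least 3 core genes) they were 28, against 44.5% of all 6368 genes. As the cells were chosen by members, a lower count or ratio outside them follows in part from the choice. The median log2 ratio of the means was 1.21 without these cells, against 2.17 in all cells drawn to 2000 UMIs. Oasl1 (10.2-fold), Ifi204 (10.0-fold), Ifit3b (8.92-fold) and Slfn5 (8.81-fold) had the largest ratios there. Ifit2 at 0.320-fold and Cmpk2 at 0.60-fold were lower in 6 of 6 samples outside the set, and Dhx58 and Stat2 were higher in only 3 of 6.

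Between the sites, members were lower in the mandible-derived cells in most clusters, and no single member passed an edgeR quasi-likelihood false discovery rate of 0.05 in any of the 9 clusters, in all cells or in the 3 labels of cluster 5. Without the filter on low counts 26 of 324 tests of a member over the 9 clusters were called (8.02%), against 1.06% of all tests. With a replicate block on the library number, whose meaning is not stated, they were 61 of 272 (22.4%), against 5.25% of all tests. The share of all genes called in the fit reported here was 0.0163%, 0.0842%, 0.0416%, 0.0108% and 0.0245% in clusters 0 to 4, 0% in clusters 5, 6 and 8 and in all cells, and 0.0842% in cluster 7. In all cells 32 of 36 members were below 0 (47.8% of all genes), 18 had an unadjusted p under 0.05 with the mandible lower (4.68% of all genes), 12 did not overlap (5.69% of all genes), and DESeq2 called 6 members and 1.46% of all genes. All cells mix clusters in unequal shares: cluster 1 was 21.4% to 28.2% of the cells in femur-derived and 14.9% to 22.6% in mandibular-derived samples. In all cells the 6 monocyte markers summed to 977 to 1244 and 1337 to 1438 CPM and the 5 erythroid markers to 168 to 459 and 577 to 1353 CPM, without overlap, and their part in the counts was not tested. Ly6c2, 1 of these monocyte markers, was abundant in the neutrophil clusters too (908 CPM in cluster 0). In cluster 1, 32 of 35 tested members had a fitted log2 fold change (mandible over femur) below 0, against 49.6% of all genes, with a median of -0.36 against 0.00 over all 10687 genes. At an unadjusted p under 0.05 stood 12 members, all lower, or 34.3% of those tested, where 6.54% of all genes were lower at that p, and edgeR called 0.0842% of all genes at the false discovery rate of 0.05 while DESeq2 called 1 member, Slfn5, and 2.62% of all genes. In sums over cells, fewer cells carrying a transcript and less of it per cell cannot be told apart. The femur and mandible samples in CPM did not overlap for 20 members, all lower in the mandible, against 16.9% of all genes, and with each cell drawn to 2000 UMIs for 18 members, against 15.2%. The median of all genes in CPM was lower by 0.13 on the log2 scale in the mandible in this cluster, and after TMM scaling 13 members did not overlap, against 10.3% of all genes.

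**Figure D4:**
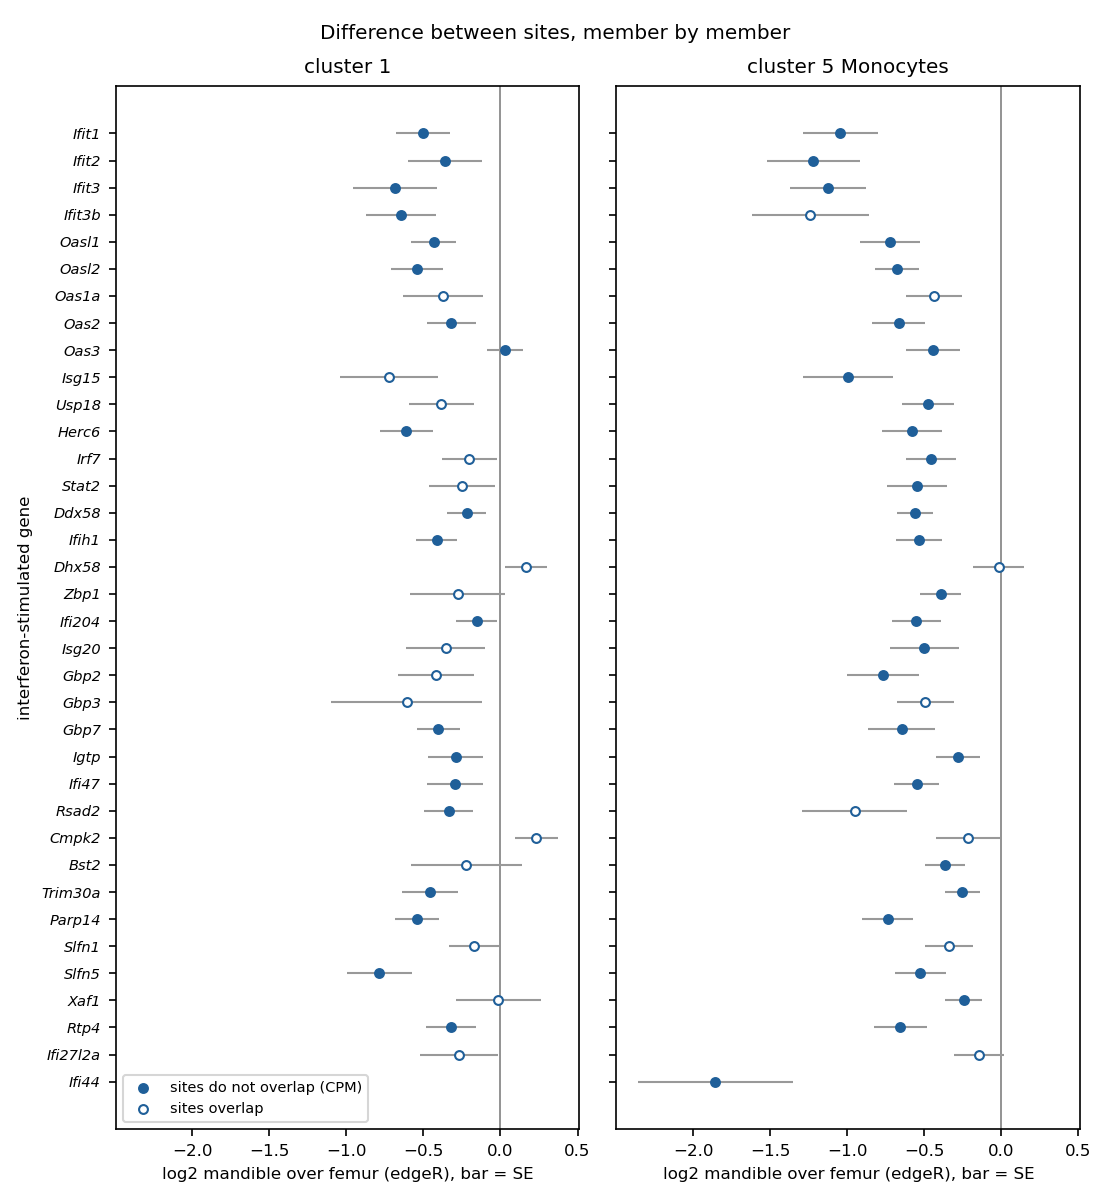
Fitted log2 fold change of mandible over femur (edgeR, points) with its SE (bars) for each member tested in cluster 1 and in Monocytes of cluster 5. Filled points mark members whose 3 femur and 3 mandible samples do not overlap in CPM, which are 20 in cluster 1 and 28 in Monocytes, and the IFIT rows lie near -1 in Monocytes.

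Femur replicate 3 had the highest value for 25 of the 33 members with at least 10 CPM in cluster 1. Without it the median of cluster 1 was -0.22, that of cluster 2 was -0.24 in place of -0.42, that of cluster 3 was -0.14 in place of -0.31, that of cluster 0 was -0.01 in place of -0.25, and that of cluster 4 was 0.03 in place of -0.22. It was highest for only 4 of 35 members in cluster 5, where femur replicates 1 and 2 were highest for 15 and 14. Its cells had the fewest UMIs of cluster 1, with a median of 3827 against 4191.5 to 6153.5 in the other samples, and the part of depth in the result was not tested.

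The IFIT genes in cluster 1 showed that pattern. Ifit1 measured 88.9, 91.0 and 120.4 CPM in femur-derived against 64.4, 69.0 and 60.2 CPM in mandibular-derived samples. Ifit3 measured 54.0, 60.3 and 110.2 CPM in femur-derived against 39.5, 45.4 and 43.5 CPM in mandibular-derived samples, and Ifit3b 39.0, 44.9 and 67.2 CPM in femur-derived against 29.8, 32.0 and 26.6 CPM in mandibular-derived samples. Femur replicate 3 was the highest for each, and the femur samples stayed above all mandible samples in all 3 genes. Ifit2 was rarer, at 15.4, 16.5 and 24.8 CPM in femur-derived against 15.2, 14.4 and 10.8 CPM in mandibular-derived samples. Fitted differences were -0.50 ± 0.17 (SE), -0.36 ± 0.24 (SE), -0.68 ± 0.27 (SE) and -0.64 ± 0.23 (SE) for Ifit1, Ifit2, Ifit3 and Ifit3b on the log2 scale, with edgeR adjusted p of 0.255, 0.58, 0.321 and 0.258.

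Of the OAS family, Oasl2 in cluster 1 measured 303, 319 and 418 CPM in femur-derived against 215, 218 and 218 CPM in mandibular-derived samples, and Oasl1 107, 127 and 129 CPM in femur-derived against 94.7, 73.5 and 76.1 CPM in mandibular-derived samples. The mandible values of Oasl2 lay within 3 CPM of each other. Oas2 measured 83.8, 98.0 and 105 CPM in femur-derived against 67.7, 78.7 and 62.6 CPM in mandibular-derived samples, and Oas3 149.5, 159 and 149.7 CPM in femur-derived against 141, 142 and 141 CPM in mandibular-derived samples. Oas3 did not overlap in CPM, but its fitted difference was 0.03 ± 0.12 (SE) on the log2 scale, and -0.54 ± 0.17 (SE) for Oasl2 and -0.43 ± 0.15 (SE) for Oasl1.

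Isg15, the ubiquitin-like modifier that is conjugated to proteins, overlapped between sites in cluster 1 at 119, 184 and 323 CPM in femur-derived against 124, 99.8 and 124 CPM in mandibular-derived samples. Femur replicate 1 lay below 2 mandible samples, and the fitted difference was -0.73 ± 0.32 (SE). Herc6, the main ISG15 ligase in mice, measured 62.6, 51.8 and 68.3 CPM in femur-derived against 32.6, 38 and 38.9 CPM in mandibular-derived samples. Herc6 did not overlap in clusters 0, 1, 2, 3, 4 and 7, each time lower in the mandible, and its fitted difference in cluster 1 was -0.61 ± 0.17 (SE).

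Ddx58 measured 111, 119 and 125 CPM in femur-derived against 94.6, 87.3 and 96.2 CPM in mandibular-derived samples, and Ifih1 66.9, 70.7 and 66.2 CPM in femur-derived against 49.3, 47.5 and 41.9 CPM in mandibular-derived samples. These RNA sensors separated the sites in cluster 1, while the third, Dhx58, overlapped at 17.4, 18.2 and 17.8 CPM in femur-derived against 19.0, 15.9 and 19.5 CPM in mandibular-derived samples. The DNA sensor Ifi204 measured 160.2, 169 and 161 CPM in femur-derived against 148, 132 and 119 CPM in mandibular-derived samples. Of the transcription factors, Stat2 overlapped at 32.3, 26.8 and 37.4 CPM in femur-derived against 19.2, 28.7 and 26.6 CPM in mandibular-derived samples.

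Guanylate-binding proteins and p47 GTPases coat vacuoles of intracellular microbes. Gbp7 measured 60.8, 54.5 and 64.9 CPM in femur-derived against 42.3, 39.4 and 42.6 CPM in mandibular-derived samples. Igtp was lower, at 18.6, 22.7 and 27.4 CPM in femur-derived against 17.3, 17.1 and 16.8 CPM in mandibular-derived samples, and Ifi47 measured 19.5, 17.5 and 18.5 CPM in femur-derived against 11.4, 16.2 and 13.7 CPM in mandibular-derived samples. These 3 stood lower in each mandible sample, by a fitted -0.40 ± 0.14 (SE) for Gbp7. Gbp2 overlapped between sites in this cluster, at 49.3, 33.6 and 51.6 CPM in femur-derived against 22.8, 37.4 and 32.0 CPM in mandibular-derived samples. Exons of Igtp and Ifi47 overlap those of Irgm2 and Olfr56 on the same strand, so a part of their counts is uncertain.

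Rsad2 measured 278, 366 and 306 CPM in femur-derived against 255, 234 and 192 CPM in mandibular-derived samples. Cmpk2, its neighbour, went the other way without passing a test, with 53.5, 58.7 and 54.0 CPM in femur-derived against 63.2, 62.6 and 59.2 CPM in mandibular-derived samples in cluster 2 and 64.7, 67.6 and 65.8 CPM in femur-derived against 69.2, 69.2 and 69.2 CPM in mandibular-derived samples in cluster 3. It was the one member whose samples did not overlap with the mandible higher in clusters 2 and 3 in CPM, and after TMM scaling 0 members did so in either cluster. Its fitted difference in cluster 1 was 0.23 ± 0.14 (SE), where its samples overlapped.

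Slfn5, of the Schlafen family of growth and antiviral regulators, had the largest fitted difference of cluster 1. It measured 180.1, 238 and 297 CPM in femur-derived against 139.6, 132 and 105 CPM in mandibular-derived samples, with -0.79 ± 0.21 (SE) on the log2 scale, an edgeR adjusted p of 0.165 and a DESeq2 adjusted p of 0.022. In cluster 0 it measured 12.2, 18.5 and 28.3 CPM in femur-derived against 11.2, 11 and 9.60 CPM in mandibular-derived samples, with -0.88 ± 0.32 (SE), and in cluster 2 64.5, 92.5 and 113 CPM in femur-derived against 48.4, 43.5 and 39.7 CPM in mandibular-derived samples. The difference thus had the same direction in all of these clusters, with femur replicate 3 highest each time. Slfn1, far more abundant, measured 630.5, 805 and 820.0 CPM in femur-derived against 682, 576 and 559 CPM in mandibular-derived samples in cluster 1 and overlapped.

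Parp14, an ADP-ribosyltransferase, had the smallest adjusted p of cluster 1, at 0.157 by edgeR, and measured 86.1, 90.6 and 93.9 CPM in femur-derived against 61.5, 57.3 and 49.8 CPM in mandibular-derived samples. Trim30a measured 385, 367 and 508 CPM in femur-derived against 252, 294 and 293 CPM in mandibular-derived samples, and Rtp4 239, 302 and 331 CPM in femur-derived against 229, 213 and 191 CPM in mandibular-derived samples. These genes did not overlap between sites and had fitted differences of -0.54 ± 0.14 (SE), -0.46 ± 0.18 (SE) and -0.32 ± 0.16 (SE). Ifi27l2a was the most abundant member of cluster 1 and overlapped, at 729, 979.7 and 1499 CPM in femur-derived against 793, 844 and 793 CPM in mandibular-derived samples, with femur replicate 3 far above the other samples.

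**Figure D5:**
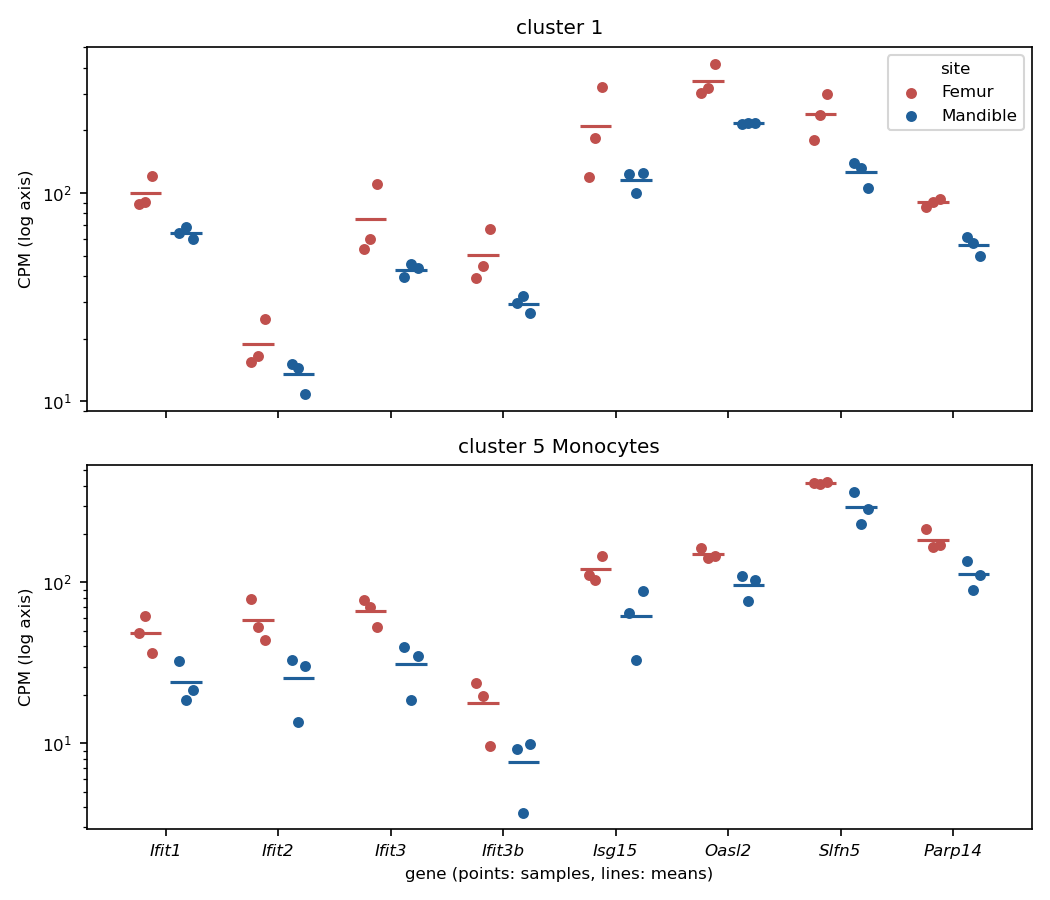
CPM on a log axis of 8 members in each of 3 femur-derived and 3 mandibular-derived samples (points) with the mean of each site (lines), in cluster 1 and in Monocytes of cluster 5. Femur points lie above mandible points for all 8 genes but Isg15 in cluster 1, and for all but Ifit3b in Monocytes.

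With all 6 samples the other neutrophil clusters had the same direction, and 50.4%, 49.8%, 51.1% and 50% of all genes were below 0 in clusters 0, 2, 3 and 4. In cluster 2, 32 of 34 members were below 0 with a median of -0.42, 17 did not overlap with the mandible lower (8.41% of all genes) and 1 did with it higher. In cluster 3 these counts were 30 of 34, -0.31, 8 (3.87% of all genes) and 1. Samples with the mandible higher did not overlap for 6.48% of all genes in cluster 2 and 3.84% in cluster 3. At an unadjusted p under 0.05 with the mandible lower stood 16 members of cluster 2 (6.4% of all genes), 8 of cluster 3 (2.71%), 3 of cluster 0 (4.24%) and 5 of cluster 4 (6.81%). DESeq2 called 4 members in cluster 2, where it called 1.85% of all genes, and 1 in cluster 3, where it called 0.367%. In cluster 0, 30 of 34 members were below 0 (17 without femur replicate 3) with a median of -0.25 and 9 did not overlap (8.63% of all genes), while after TMM scaling 2 (5.88% of the members tested) did not overlap with the mandible lower, against 6.95% of all genes, and 1, Oas3, with it higher. In cluster 4, 28 of 34 were below 0 (17 of 35 without that sample), 7 did not overlap (10.1% of all genes), and Ifit2 there measured 14.7, 12.7 and 12.5 CPM in femur-derived against 9.19, 7.04 and 11 CPM in mandibular-derived samples. In cluster 0 Isg15 measured 17.9, 24.4 and 44.7 CPM in femur-derived against 20.1, 15.5 and 21.6 CPM in mandibular-derived samples, and Oasl2 29.4, 34.7 and 53.2 CPM in femur-derived against 26.3, 28.5 and 26.2 CPM in mandibular-derived samples.

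Cluster 5 mixed several labels. In the whole cluster 35 of 36 members were below 0 (52.4% of all genes), with a median of -0.44, 22 had an unadjusted p under 0.05 with the mandible lower (3.86% of all genes) and 18 did not overlap (4.29% of all genes), while DESeq2 called 3 members and 0.509% of all genes. In cells labelled Monocytes (488 to 772 per femur sample and 585 to 665 per mandible sample) all 36 members had a fitted log2 fold change below 0, against 49.9% of all 11364 genes, with a median of -0.55 against 0.00. At an unadjusted p under 0.05 stood 28 of them, all lower, against 6.27% of all genes, and 28 did not overlap in CPM with the mandible lower, against 7.18% of all genes. After TMM scaling 30 did not overlap, against 8.84% of all genes, and with each cell drawn to 2000 UMIs 12 did not, against 5.41% of the same genes. The smallest adjusted p by edgeR was 0.105 where it called 0.0968% of all genes, and DESeq2 called 12 members and 2.97% of all genes. Without the filter on low counts edgeR called 19 members (52.8%, against 3.23% of all genes). With a replicate block on the title number it called 2 (5.56%, against 0.73%), and on the library number, with its 2 pairs alone, 24 (66.7%, against 7.08%). It called 14 without mandible replicate 1 (38.9%, against 4.98%) and 0 without any other replicate. In cells labelled Neutrophils within cluster 5 the median was -0.24 (-0.14 without femur replicate 3) with 8 of 36 members not overlapping (5.02% of all genes), and in Macrophages it was -0.43 with 8 of 32 (4.01% of all genes). With each cell drawn to 2000 UMIs 5 and 2 members did not overlap with the mandible lower (5.15% and 4.37% of all genes). In that draw 2 and 1 did not overlap with the mandible higher. Below 0 were 30 and 27 members (50.2% and 52% of all genes), and at an unadjusted p under 0.05 with the mandible lower 6 and 8 (2.96% and 2.81%), while edgeR called 0.0603% and 0.0445% of all genes.

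Of the IFIT genes in Monocytes, Ifit1 measured 48.2, 62.0 and 36.2 CPM in femur-derived against 32.3, 18.5 and 21.5 CPM in mandibular-derived samples. Ifit2 measured 79.3, 52.8 and 44.1 CPM in femur-derived against 33.0, 13.5 and 30.1 CPM in mandibular-derived samples, and Ifit3 77.2, 70.2 and 52.6 CPM in femur-derived against 39.6, 18.5 and 35.1 CPM in mandibular-derived samples. None of these overlapped between sites, and mandible replicate 2 was the lowest for each. Ifit3b overlapped, at 23.8, 19.8 and 9.65 CPM in femur-derived against 9.26, 3.71 and 9.86 CPM in mandibular-derived samples. On the log2 scale the fitted differences were -1.04 ± 0.24 (SE), -1.22 ± 0.30 (SE), -1.13 ± 0.25 (SE) and -1.24 ± 0.38 (SE), with edgeR adjusted p of 0.111, 0.129, 0.109 and 0.19. In cluster 5 as a whole they were -1.0 ± 0.28 (SE), -0.94 ± 0.22 (SE) and -1.06 ± 0.25 (SE) for Ifit2, Ifit3 and Ifit3b.

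Isg15 in Monocytes measured 112, 103 and 147 CPM in femur-derived against 65.0, 33.0 and 88.1 CPM in mandibular-derived samples, with -1.0 ± 0.29 (SE) on the log2 scale. Oasl2 measured 164, 142 and 147 CPM in femur-derived against 109, 76.7 and 103 CPM in mandibular-derived samples, and Ddx58 76.2, 69.8 and 72.9 CPM in femur-derived against 54.4, 45.0 and 51.6 CPM in mandibular-derived samples. Both separated the sites, with -0.68 ± 0.14 (SE) and -0.56 ± 0.12 (SE). Parp14 measured 216, 166 and 172 CPM in femur-derived against 136, 90.1 and 111 CPM in mandibular-derived samples, and Gbp2 56.3, 36.9 and 41.9 CPM in femur-derived against 29.2, 17.2 and 33.9 CPM in mandibular-derived samples. Parp14 had -0.74 ± 0.16 (SE) on the log2 scale and an edgeR adjusted p of 0.109.

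The transcription factors were lower in each mandible sample of Monocytes. Irf7, the master regulator of interferon alpha genes, measured 163, 149 and 143 CPM in femur-derived against 114, 84.8 and 139.6 CPM in mandibular-derived samples. Stat2 measured 112, 90 and 97.5 CPM in femur-derived against 71.8, 48.0 and 89.4 CPM in mandibular-derived samples, and Zbp1, a sensor of Z-form nucleic acids, 125, 108 and 133 CPM in femur-derived against 90.2, 86.1 and 107 CPM in mandibular-derived samples. Their fitted differences were -0.45 ± 0.16 (SE) for Irf7 and -0.54 ± 0.19 (SE) for Stat2. Bst2, added after its values were seen, measured 159.7, 170.1 and 196 CPM in femur-derived against 144, 134 and 137 CPM in mandibular-derived samples, with -0.37 ± 0.13 (SE).

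Ifi27l2a and Dhx58 were among the 8 members that overlapped between sites in Monocytes. Ifi27l2a, the most abundant member of all, measured 2157, 2617 and 2853 CPM in femur-derived against 2582, 2309 and 2144 CPM in mandibular-derived samples, with -0.15 ± 0.16 (SE). Dhx58 measured 38.6, 41.3 and 39.5 CPM in femur-derived against 48.4, 30.9 and 41.1 CPM in mandibular-derived samples, with -0.02 ± 0.17 (SE). Slfn5 lay between, at 416, 411 and 423 CPM in femur-derived against 365, 232 and 288 CPM in mandibular-derived samples and -0.52 ± 0.16 (SE), and Ifi44, singled out after its values were seen, had the largest fitted value of -1.86 ± 0.51 (SE) on only 224 UMIs in all.

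The sites were also set side by side outside the cells with at least 3 other core genes. These cells were set apart by the same family of genes, so a smaller value outside them follows in part from the choice, and it is given as a description. In cluster 1 the median log2 ratio of CPM at 2000 UMIs was -0.48 in all scored cells and -0.25 outside them over 33 members (in CPM before thinning the median of all genes of this cluster lay at -0.13). In Monocytes it was -0.42 and -0.28 over 35 members. Whether the site effect differed between cell groups was tested on per-sample differences with limma. For cluster 5 against cluster 0 none of 34 members passed a false discovery rate of 0.05 (0% of all 11741 genes did), 3 had an unadjusted p under 0.05 (Ddx58, Oas3 and Ifit2, each more negative in cluster 5) against 10.3% of all genes, and the median difference was -0.27. It was -0.12 without mandible replicate 2, -0.15 and -0.16 without femur replicates 1 and 2, and -0.37 without femur replicate 3 or mandible replicate 1. For cluster 1 against cluster 0 none passed, none had an unadjusted p under 0.05, against 12.6% of all genes, and the median was -0.08. It was -0.04 without femur replicate 1, -0.12 without mandible replicate 2, -0.18 without femur replicate 3 and -0.00561 with the replicate block on the library number. That block held only the 2 pairs of samples that share such a number.

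Other members of clusters 6, 7 and 8 rested on few cells. Cluster 6 had 39, 158 and 60 cells in femur replicates 1 to 3 and 100, 394 and 258 in mandible replicates 1 to 3. In cluster 6, where 6 B cell markers summed to 8185 to 17161 CPM, Isg20, an exonuclease, measured 10.6, 11.3 and 11.3 CPM in femur-derived against 19.0, 17.1 and 22.5 CPM in mandibular-derived samples and Xaf1 24.7, 23.4 and 18.9 CPM in femur-derived against 31.6, 26.8 and 35.1 CPM in mandibular-derived samples, both without overlap and higher in the mandible (6.22% of all genes), none did not overlap with it lower (3.01%), and the median of 24 members was -0.06, with 14 below 0 (51% of all genes). At an unadjusted p under 0.05 stood 1 member lower (2.51% of all genes) and 1 higher (1.53%). In cluster 7, 6 of 30 members did not overlap with the mandible lower (7.91% of all genes), 2 after TMM scaling (5.25% of all genes), 26 were below 0 (51.4%), 3 had an unadjusted p under 0.05 (3.05%) and DESeq2 called 1 (0.337%). In cluster 8, with 11 cells in femur replicate 3, Ifit1 measured 28.0, 49.4 and 50.7 CPM in femur-derived against 9.19, 14.4 and 17.9 CPM in mandibular-derived samples, on 59 UMIs in all. Oasl1, on 43 UMIs, measured 24.7, 33.0 and 25.4 CPM in femur-derived against 0, 8.25 and 8.93 CPM in mandibular-derived samples, and Zbp1, on 32 UMIs, 14, 24.7 and 31.7 CPM in femur-derived against 4.59, 12.4 and 0 CPM in mandibular-derived samples. These 3 were lower in each mandible sample but too rare to be tested, and none of 9 tested members separated the sites (3.34% of all genes did with the mandible lower), 7 were below 0 (48.1%) and none had an unadjusted p under 0.05 with the mandible lower (0.472%).

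Of 114 other genes of the pathway in the files, edgeR called none at a false discovery rate of 0.05 between sites in clusters 0 to 8 or in the labels of cluster 5. In Monocytes DESeq2 called 9 of 88 (10.2%), against 2.97% of all genes. The 21 interferon genes themselves were almost unseen, with 4 UMIs in all of cluster 1 and 23 in Monocytes, 22 of them Ifnk, and no UMI of Ifnb1 in either. Ifnar1 measured 61.4 ± 7.62 CPM in femur-derived and 46.1 ± 6.21 CPM in mandibular-derived samples of cluster 1 (SD, n = 3), and Ifnar2 170 ± 2.61 and 166 ± 12.9 CPM. In Monocytes the median fitted log2 difference was -0.20 for 6 receptor genes, -0.14 for 10 of signal transduction, -0.01 for 7 of negative feedback -0.18 for 10 of upstream sensing and -0.38 for 55 further interferon-stimulated genes. At an unadjusted p under 0.05 in either direction stood 1, 1, 0, 2 and 31 of them, while 6.27% of all genes were at that p with the mandible lower. In the same order of lists the medians were -0.13, -0.10, -0.04, -0.13 and -0.16 in cluster 1, and -0.02, 0.05, 0.08, -0.11 and -0.06 in cluster 0. In cluster 2 they were -0.23, -0.14, -0.07, 0.08 and -0.19. Irf9 had -0.15 ± 0.12 (SE) in Monocytes.

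Sums of cell type markers separated the sites in several of these cell groups. In Monocytes the 6 macrophage markers summed to 395 to 511 CPM in the femur and 134 to 292 in the mandible, and the 6 monocyte markers to 5703 to 6529 and 6640 to 6815 CPM, without overlap. The 8 connective, bone and tooth markers summed to at most 2.28 CPM in the femur and to 15.8 to 35.1 CPM in the mandible there. In cluster 1 the 6 monocyte markers summed to 329 to 432 and 518 to 657 CPM, the 6 conventional dendritic cell markers to 31.8 to 39.7 and 12.8 to 21.0 CPM, and the connective, bone and tooth markers to at most 5.39 and to 28.3 to 61.7 CPM, while the 9 neutrophil markers overlapped at 161557 to 231866 and 219690 to 281408 CPM. None of these markers was at 0 in all samples of Monocytes or cluster 1. The 6 T and NK cell markers, 1 of them at 0, summed to 8.71 to 13.1 and 15 to 18 CPM in cluster 1. In cluster 2 the monocyte markers summed to 533 to 675 CPM in femur-derived and 755 to 859 CPM in mandibular-derived samples, the conventional dendritic cell markers to 9.13 to 14.9 and 7.43 to 8.96 CPM, and the T and NK cell markers, 2 of them at 0, to 11.2 to 14.5 and 16.9 to 17.9 CPM. Of the monocyte markers, Ly6c2 alone had a mean of 392 CPM in cluster 1 and 642 CPM in cluster 2, where Ccr2 had 3.46 and 2.20 CPM. Ly6c2 also measured 908 CPM in cluster 0 and 1041 CPM in cluster 3, so these sums are no measure of monocyte content in neutrophil clusters. In cluster 0 the 5 neutrophil precursor markers summed to 273 to 367 and 172 to 238 CPM and the 5 erythroid markers to 18.5 to 26.7 and 50.2 to 216 CPM. The conventional dendritic cell markers summed there to 5.23 to 6.95 and 3.47 to 4.39 CPM, and in cluster 7, 2 of them at 0, to 21.0 to 37.5 and 5.98 to 15.2 CPM. In cluster 4 the T and NK cell markers summed to 80.4 to 94.7 and 105 to 137 CPM. In cluster 5 as a whole the 6 B cell markers summed to 24.5 to 32.2 and 32.9 to 86.2 CPM and the connective, bone and tooth markers to 25.0 to 32.9 and 120 to 1894 CPM. The connective, bone and tooth markers were higher in each mandible sample in all 9 clusters. Their part in the results was not tested.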

How the data were processed

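The authors deposited, per sample, filtered counts of UMIs per gene and cell from 10x libraries (Cell Ranger 7.0.1 per the labels, 7.1.0 per the file headers, build mm10) and a metadata table with clusters, ImmGen labels, cell cycle phase and, as other deposited columns, sample names. Mitochondrial content was deposited as a percent of UMIs per cell. Only the 69776 cells of the metadata, from 8184 to 23233 barcodes per sample, were used, and the authors' clusters were kept; no doublet caller was run, and cells under the 95th percentile of UMIs served as an alternative.

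Counts were summed per sample and cluster and compared between 3 femur and 3 mandible samples by edgeR 4.0.16 (TMM, filterByExpr, quasi-likelihood, Benjamini-Hochberg over all genes, false discovery rate 0.05), with DESeq2 1.42.0 as an alternative. Differences of the site effect between clusters used limma 3.58.1, and shares of cells a 2-sided exact permutation test. Scripts were tested on simulated data. Per-sample values are given for members that met a written rule: called between sites, not overlapping between sites at a mean of at least 10 CPM, or among the 3 highest in level or in site difference in clusters 0, 1 or 5, or among the 3 largest or smallest ratios of cluster 1 over cluster 0; other members are given by counts and ranges. The members and lists were chosen with earlier results of these data known. Depth is that of the kept UMIs, 82962160 to 244946998 per sample; counting intervals do not cover spread between mice. Positions are from GENCODE vM21 on mm10 and promoter windows from RefSeq GRCm38.p6. Use of strand in counting is not given in the sources used here, so Oasl1, Usp18, Irf7, Dhx58 and Slfn5, which overlap genes on the other strand, are uncertain to that extent, as is Rtp4, which shares exons with Gm45338. Replicate numbers in the titles were not used to pair the samples in the fit reported here.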

Additional observations from a re-analysis of the deposited data

How the results depend on the processing

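No member was called between sites by edgeR over clusters 0 to 8. DESeq2 called 10 of 270 tests of a member (3.7%), against 0.94% of all tests. Leaving out the filter on low counts called 26 of 324 (8.02%), against 1.06%. A replicate block on the library number called 61 of 272 (22.4%), against 5.25%. A replicate block on the title number called 0, and leaving out 1 replicate 0 to 1. The library block was fitted on its 2 pairs alone, without femur replicate 1 and mandible replicate 3. In all cells DESeq2 called 6 members and 1.46% of all genes. Over 3 labels of cluster 5 DESeq2 called 12 of 104 tests of a member (11.5%), against 1.3% of all tests. Without the filter 22 of 108 were called there (20.4%, against 1.5%). The title block called 2 of 104 (1.92%, against 0.384%) and the library block 24 of 105 (22.9%, against 2.72%). On leaving out 1 replicate the counts were 0 to 14, with 14 without mandible replicate 1, all in Monocytes (38.9% of the members and 4.98% of all genes there). For the pathway genes over clusters 0 to 8 they were 5 of 596, 15 of 825 and 38 of 602 tests (0.839%, 1.82% and 6.31%, by DESeq2, no filter and library block), against 0.94%, 1.06% and 5.25% of all tests, and 0 to 2 on leaving out 1 replicate (2 of 600 without femur replicate 1). Over the 3 labels of cluster 5 they were in the same order 10 of 243, 19 of 277 and 20 of 246 (4.12%, 6.86% and 8.13%), against 1.3%, 1.5% and 2.72% of all tests. Without mandible replicate 1 they were 13 of 244 there (5.33%, against 1.95%). In Monocytes alone they were 9, 15 and 20 (10.2%, 16.1% and 22.7%), against 2.97%, 3.23% and 7.08% of all genes. For the correlations that follow, the mean of its site was first subtracted from each gene's log2 CPM. The deviations left were correlated over genes between 1 femur and 1 mandible sample. Deviations of the 3 samples of a site sum to 0 for each gene, so these correlations depend on each other. Samples with the same title number correlated from -0.40 to 0.18 in clusters 0 to 3, from -0.23 to 0.16 in clusters 4 to 7 and at 0.61, 0.33 and -0.20 in cluster 8. The 2 pairs that share a library number correlated from 0.29 to 0.50 in clusters 0 to 3, from 0.003 to 0.33 in clusters 4 to 7 and at -0.63 and -0.17 in cluster 8. The labels do not say what that number marks and it gives fewer than 3 pairs, so the fit without the block is the one reported.

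On leaving out 1 replicate the median log2 difference ranged from -0.35 to -0.00578 in cluster 0, -0.52 to -0.24 in cluster 2, -0.46 to -0.14 in cluster 3, -0.37 to 0.0284 in cluster 4, -0.26 to 0.22 in cluster 6 and -1.11 to -0.32 in cluster 8. Among cells under the 95th percentile of UMIs it was 0.0132 in cluster 6 and -1.34 in cluster 8. The cluster 6 difference in high-scoring share (0.318 percentage points) was -0.0981 with 3 core genes, -0.641 with 8 of all members, -1.42 without thinning and -0.218 to 0.585 on leaving out 1 replicate. In cluster 1 that difference ranged from -6.01 to -2.67, the latter without femur replicate 3. Outside cells with at least 3 other core genes the median log2 ratio was 0.34 from cluster 3 to 2, 0.32 from 2 to 1 and 1.21 from 0 to 1. The alternatives that follow were chosen after seeing the data. Leaving out cells with at least 3 core genes for every gene left 12 and 11 members higher in 6 of 6 samples in these first 2 steps (28.9% and 38.1% of all genes). A lower count there follows in part from the choice of cells. Keeping members at 10 CPM in the earlier cluster gave a ratio of 1.58 from 0 to 1. TMM scaling of the overlap left 2, 13, 2 and 5 members with the mandible lower (clusters 0, 1, 7 and Neutrophils of cluster 5, against 6.95%, 10.3%, 5.25% and 5.17% of all genes) and 1 higher in cluster 0. Drawing each cell to 2000 UMIs left 19, 3, 12, 2 and 5 with it lower in all cells, cluster 7 and the Monocytes, Macrophages and Neutrophils of cluster 5 (5.81%, 7.02%, 5.41%, 4.37% and 5.15% of all genes). With it higher this draw left 1 in those Macrophages and 2 in those Neutrophils. The difference outside cells with at least 3 other core genes was -0.24 in all cells and -0.25, -0.27 and -0.23 in clusters 1, 2 and 3. Of 42 fitted differences of named members that were followed, those that turned direction were Ifi27l2a in cluster 1 (-0.487 to 0.0856 on leaving out 1 replicate, the latter without femur replicate 3), Oas3 in cluster 1 (-0.0240 without the filter, -0.00940 to 0.0476 on leaving out 1 replicate) and Dhx58 in Monocytes (-0.174 to 0.125). Further members turned without femur replicate 3. The members below 0 then went from 30 to 17 of 34 in cluster 0 and from 28 of 34 to 17 of 35 in cluster 4. The cause was not tested. Clusters 6 and 8 rest on few cells, which limits their values.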
